A study of Mus musculus with 8 samples.

Results

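The 9 genes described here encode transcription factors that steer activated CD4 T cells into helper lineages other than Th1: Gata3 and Maf for Th2 cells, Rora, Ahr and again Maf for Th17 cells, Bcl6 and its antagonist Prdm1 (Blimp-1) for follicular helper (Tfh) cells, and Foxp3, Ikzf2 (Helios) and Ikzf4 (Eos) for regulatory T (Treg) cells. They were chosen by symbol, with earlier results of these data known. The platform annotation assigned 28 of 45101 probe sets to them as single genes, and the probe set with the highest mean over the 8 arrays stood for each gene. All 9 passed the filter on dim genes, among 12091 genes tested of 18193 named.

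Signals came from Affymetrix arrays of splenic CD4 T cells of 8 week old mice, purified magnetically and stimulated with antibodies to CD3 and CD28 for 15 h. The mice were wild type (WT) or carried a knockout (KO) of IFN-gR1, the receptor subunit that binds IFN-γ. Dibutyryl cyclic AMP (db-cAMP), a form of cyclic AMP that crosses the cell membrane, or vehicle was present for the last 3 h. Each genotype was thus studied with vehicle and with db-cAMP, which makes 4 groups of 2 arrays, called biological replicates in the titles. The labels do not state the strain, the dose, the part of Ifngr1 that was disrupted or whether animals were pooled. Nothing says that replicates came from separate animals or cultures, so the p-values reflect the spread between these arrays, which may be technical. In the 4 KO samples the free-text description says WT, and the titles, source names and genotype entries were followed. Ifngr1 itself gave 905 and 874 with vehicle and 7319 and 8201 with db-cAMP in WT cells, and 439 and 378 against 1056 and 1272 in KO cells (KO minus WT, log2 -1.12 ± 0.12 and -2.74 ± 0.12). Whether its probe set lies in the disrupted part is not known here, so these values check the labels no further.

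Lineage regulators act in opposed pairs and in sets. GATA3 drives the Th2 cytokine locus, and MAF transactivates Il4, Il10 and Il21. RORα is a nuclear receptor that promotes the Th17 programme, and AHR is a ligand-activated receptor that supports IL-22 production. BCL6 and Blimp-1 repress each other, the former favouring Tfh cells and the latter effector cells. FOXP3 defines Treg cells, in which the zinc finger proteins Helios and Eos act as its partners. Cyclic AMP activates protein kinase A, which phosphorylates CREB, a factor that binds the cAMP response element (CRE).

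Db-cAMP changed 7 of the 9 regulators in WT cells. Gata3, Rora, Bcl6, Ikzf4 and Ikzf2 rose and Maf and Ahr fell, while Foxp3 and Prdm1 did not pass the test (limma with Benjamini-Hochberg adjustment over all genes tested, adjusted p under 0.05). Of all genes tested 35% were called in this comparison, 16.4% higher and 18.6% lower. The median size of the log2 change, regardless of sign, was 0.88 over the 9 genes and 0.4 over all genes. The 9 were chosen with earlier results of these data known, so their shares and medians are no test of the set. In KO cells 4 of the 9 were called, Gata3, Rora and Bcl6 higher and Maf lower, where 8.38% of all genes were called, 4.7% higher and 3.68% lower. These 4 were called in the same direction in both genotypes.

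**Figure D1:**
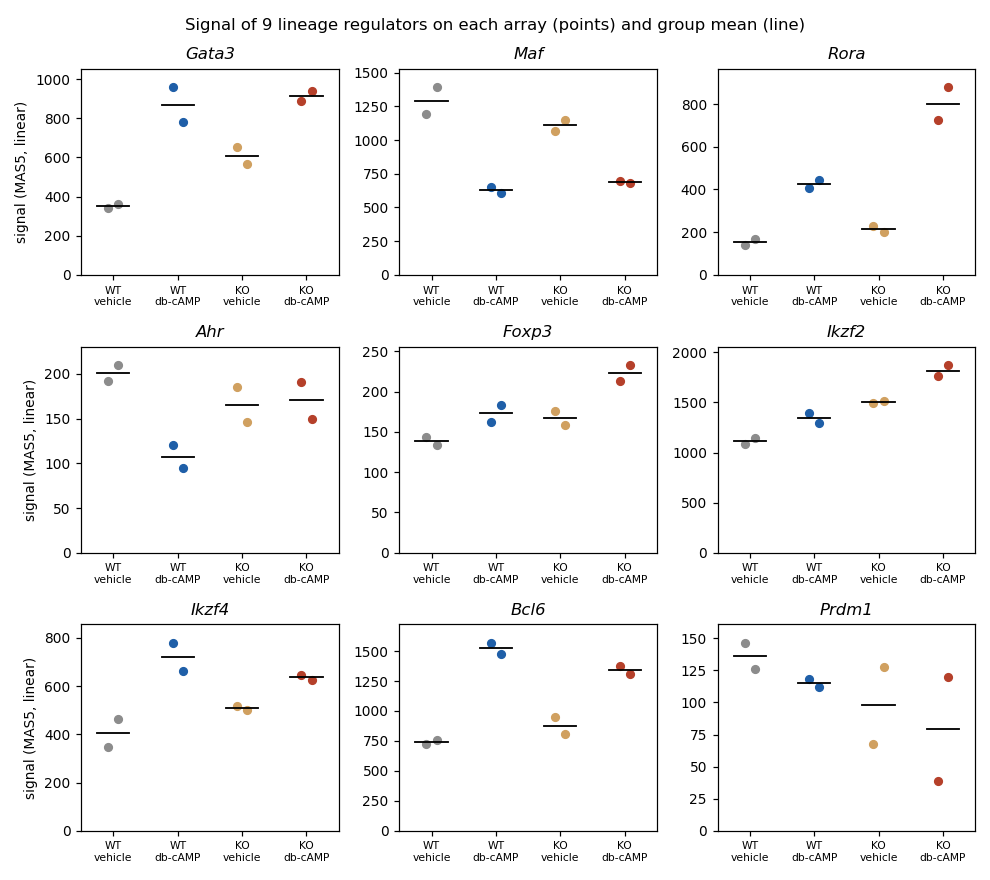
Signal (linear, as deposited) of the main probe set of each regulator on every array, as points, with the mean of the 2 arrays as a line; each panel has its own axis from 0. In WT cells the db-cAMP points of Gata3, Rora, Bcl6 and Ikzf4 lie above the vehicle points and those of Maf and Ahr below them, and the Prdm1 points of KO cells spread from 38.8 to 128.

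Gata3, the master regulator of Th2 cells, gave signals of 342 and 364 on the WT vehicle arrays and 958 and 779 with db-cAMP, and in KO cells 652 and 567 against 886 and 941. Every db-cAMP array lay above every vehicle array, and the KO vehicle arrays lay between the WT vehicle and the db-cAMP arrays. The rise was 2.43-fold in WT cells (log2 1.28 ± 0.14 SE, adjusted p = 7.33e-06) and 1.5-fold in KO cells (0.58 ± 0.14, adjusted p = 0.0196). In KO cells the call was lost when KO vehicle replicate 2 was left out (adjusted p = 0.176), on leaving out db-cAMP replicate 1 (0.0916) or 2 (0.159) of the same genotype, with an equal median per array (0.106) and without the intensity trend of the fit (0.125). The gene has 1 probe set here.

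Maf, a basic leucine zipper factor that drives Il4 in Th2 cells and is also used by Th17 and Tfh cells, went the other way. Its signals were 1192 and 1391 in WT cells with vehicle and 650 and 610 with db-cAMP, and 1070 and 1151 against 693 and 682 in KO cells. The groups of each genotype did not overlap. The fall was 2.03-fold in WT cells (log2 -1.02 ± 0.11, adjusted p = 9.81e-06) and 1.61-fold in KO cells (-0.69 ± 0.11, adjusted p = 0.00196). Maf has 6 probe sets, of which 5 passed the filter. The other 4 gave changes of -0.59 to -0.16 in WT cells and of -0.92 to -0.15 in KO cells, all below 0, but only the main probe set was called, and the mean over all 6 probe sets was not (-0.26, adjusted p = 0.55 in WT; -0.62, adjusted p = 0.301 in KO). Without the intensity trend the KO call was lost too (adjusted p = 0.0565).

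Rora, a nuclear receptor of the Th17 lineage, showed the largest changes of the 9 genes in both genotypes. The main probe set stood at 141 and 169 in WT cells with vehicle and at 408 and 444 with db-cAMP. The KO arrays gave 228 and 198 against 726 and 878. No db-cAMP array overlapped a vehicle array, and the KO db-cAMP arrays were the highest. The rise was 2.69-fold in WT cells (log2 1.43 ± 0.18, adjusted p = 3.59e-05) and 3.69-fold in KO cells (1.88 ± 0.18, adjusted p = 2.64e-05). With every probe set as its own feature, 5 of the 7 kept Rora probe sets rose in WT cells and 2 in KO cells, and all 7 changes were above 0 in both. The mean of all 9 Rora probe sets was not called in KO cells (0.66, adjusted p = 0.328).

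The Rora probe sets differed in which genotype rose more. The main probe set gave a log2 difference between the KO and the WT effect of 0.45 ± 0.26 (adjusted p = 0.328), whereas the other 6 gave values from -1.66 to -0.42. One of these was called: 1436326_at, at 52.8 to 384 over the 8 arrays, rose by 2.36 ± 0.25 in WT cells (adjusted p = 1.12e-05) and stood at 0.7 ± 0.25 in KO cells (adjusted p = 0.143), a difference of -1.66 ± 0.35 (adjusted p = 0.0119 in the fit of every probe set). Which Rora transcripts each probe set reads was not analysed here, so the direction of the genotype difference in the Rora response is not settled by these arrays.

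**Figure D2:**
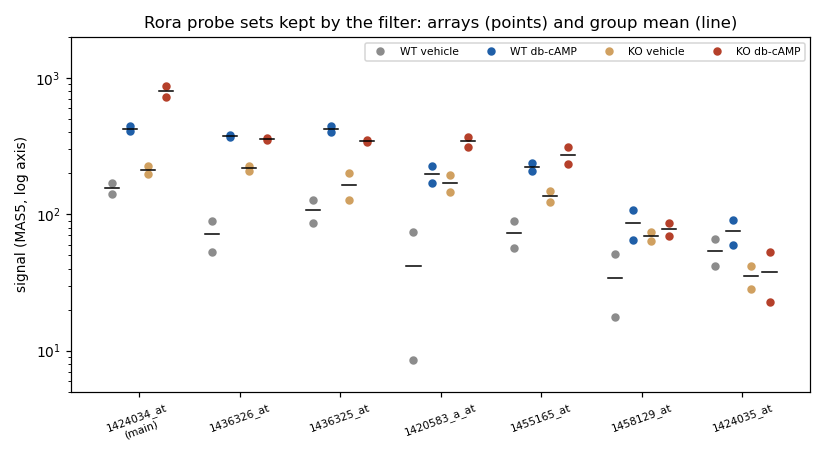
Signal (MAS5, log axis) of the 7 Rora probe sets that passed the filter, with points for arrays and lines for group means. The db-cAMP points of the 5 brightest lie above the vehicle points of the same genotype, and both KO db-cAMP points stand above both WT db-cAMP points at the main probe set (726 and 878 against 408 and 444) and at 1420583_a_at (314 and 371 against 227 and 169).

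Ahr, the aryl hydrocarbon receptor, fell in WT cells alone by the threshold. Its signals were 192 and 210 with vehicle and 121 and 94.5 with db-cAMP in WT cells, and 185 and 146 against 192 and 149 in KO cells. The WT groups did not overlap and the KO groups did. The change was -0.88 ± 0.28 in WT cells (1.84-fold lower, adjusted p = 0.0258) and 0.04 ± 0.28 in KO cells (95% interval -0.56 to 0.64, adjusted p = 0.967), and the difference between them, 0.92 ± 0.39, did not pass (adjusted p = 0.176). The WT call was lost on leaving out vehicle replicate 1 (adjusted p = 0.0661) or 2 (0.106) or db-cAMP replicate 2 (0.113) of that genotype, with no filter on dim genes (0.0594), in a fit of the WT arrays alone (0.0619), and on averaging its probe sets (0.163). The second probe set stood at -0.69 ± 0.64 in WT cells (adjusted p = 0.471).

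Bcl6, the zinc finger repressor required for Tfh cells, rose in both genotypes. It stood at 722 and 757 with vehicle and 1566 and 1478 with db-cAMP in WT cells, and at 947 and 807 against 1372 and 1309 in KO cells. The groups were apart in each genotype. The rise was 2.05-fold in WT cells (log2 1.04 ± 0.11, adjusted p = 5.36e-06) and 1.53-fold in KO cells (0.61 ± 0.11, adjusted p = 0.00288). The second, dimmer Bcl6 probe set gave 0.66 ± 0.25 (adjusted p = 0.0682) and 0.38 ± 0.25 (adjusted p = 0.5), and the mean of both probe sets was not called in KO cells (0.5, adjusted p = 0.108), nor was the main one without the intensity trend (0.0729).

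Prdm1 encodes Blimp-1, which BCL6 opposes. It was the dimmest of the 9 relative to its array, at 0.641 to 2.6 times the array median, and below that median on 1 array. The signals were 146 and 126 with vehicle and 118 and 112 with db-cAMP in WT cells, and 67.8 and 128 against 38.8 and 120 in KO cells. The WT groups were apart and the KO groups overlapped. The changes of -0.23 ± 0.48 in WT cells (adjusted p = 0.764) and -0.41 ± 0.48 in KO cells (adjusted p = 0.732) did not pass, with 95% intervals of -1.27 to 0.82 and -1.45 to 0.63.

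The promoters of Gata3, Rora and Bcl6 are shown because these 3 rose with db-cAMP in both genotypes. They are the 250 bases before an annotated start in RefSeq on GRCm38.p6, written 5′ to 3′ on the gene's strand, with matches to the CRE half-site TGACG and to the STAT-binding motif TTCNNNGAA in capitals. The regions are chr16:23988853-23989102 and chr16:23981284-23981533 (minus strand) for Bcl6, chr2:9878601-9878850 (minus strand) for Gata3 and chr9:68653536-68653785 (plus strand) for Rora.
Bcl6, upstream start: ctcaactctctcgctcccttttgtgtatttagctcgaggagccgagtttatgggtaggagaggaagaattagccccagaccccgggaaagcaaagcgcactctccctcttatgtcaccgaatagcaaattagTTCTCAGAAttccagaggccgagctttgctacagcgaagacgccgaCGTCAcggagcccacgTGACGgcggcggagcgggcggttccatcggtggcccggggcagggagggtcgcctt
Bcl6, downstream start: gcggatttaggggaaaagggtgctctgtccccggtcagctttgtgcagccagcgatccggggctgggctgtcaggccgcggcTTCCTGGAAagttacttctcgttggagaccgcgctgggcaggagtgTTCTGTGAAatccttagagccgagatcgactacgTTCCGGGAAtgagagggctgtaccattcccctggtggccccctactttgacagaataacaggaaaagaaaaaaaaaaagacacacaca
Gata3: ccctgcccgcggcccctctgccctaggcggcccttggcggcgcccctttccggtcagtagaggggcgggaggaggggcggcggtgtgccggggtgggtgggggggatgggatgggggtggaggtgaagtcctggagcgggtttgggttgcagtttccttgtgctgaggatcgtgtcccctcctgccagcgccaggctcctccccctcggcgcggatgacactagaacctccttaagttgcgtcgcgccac
Rora: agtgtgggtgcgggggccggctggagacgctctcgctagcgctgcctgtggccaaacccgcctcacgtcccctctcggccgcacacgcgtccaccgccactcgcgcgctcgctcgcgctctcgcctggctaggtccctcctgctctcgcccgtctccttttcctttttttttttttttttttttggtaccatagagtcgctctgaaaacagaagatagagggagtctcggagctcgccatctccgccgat
Both strands were searched, and the half-site lies within the full CRE, TGACGTCA. The upstream Bcl6 window held the half-site at 72 and 56 bases before the start, on opposite strands, and TTCTCAGAA at 118 bases. The downstream Bcl6 window held TTCCTGGAA, TTCTGTGAA and TTCCGGGAA at 168, 122 and 88 bases before the start. The Gata3 and Rora windows held no match to these letters. Both windows lie within the annotated gene, which reaches upstream to chr2:9887953 for Gata3 and chr9:68653404 for Rora. The bases before those ends were not searched.

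The table had windows for 5 of the 9 genes, 7 in all, and none for Maf, Ahr, Ikzf2 and Ikzf4. Among the 7 windows the full CRE was found in 0, the half-site in 2 (Bcl6 and Prdm1) and TTCNNNGAA in 3 (both Bcl6 windows and a Foxp3 window). Of all 32851 windows of the same length, 1.55% held the full CRE, 17.8% the half-site and 7.02% TTCNNNGAA. A match describes these letters and shows no binding.

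Foxp3, the defining factor of Treg cells, stood at 144 and 134 with vehicle and 163 and 183 with db-cAMP in WT cells, and at 176 and 159 against 213 and 233 in KO cells. The db-cAMP arrays lay above the vehicle arrays in each genotype, as the groups of 63% of all genes in WT cells and 52.3% in KO cells lay apart in 1 direction or the other. The changes of 0.3 ± 0.24 (95% interval -0.22 to 0.83, adjusted p = 0.379) and 0.4 ± 0.24 (-0.12 to 0.93, adjusted p = 0.405) did not pass. In bulk RNA, a different number of Treg cells and a different level per cell cannot be told apart.

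Ikzf2, the Ikaros-family factor Helios of thymic Treg cells, was the brightest of the 9 relative to its array. It stood at 1086 and 1141 with vehicle and 1390 and 1296 with db-cAMP in WT cells, and at 1494 and 1519 against 1760 and 1871 in KO cells. The 4 groups were all apart, with both WT groups below both KO groups and vehicle below db-cAMP in each. The 1.2-fold rise in WT cells (log2 0.27 ± 0.09, adjusted p = 0.0375) was the smallest called change of the 9 genes, and 13 of 20 alternatives lost the call. Without WT db-cAMP replicate 1 its adjusted p was 0.17, without WT vehicle replicate 1 it was 0.161, and with arrays set to an equal median the change was 0.1 (adjusted p = 0.655). In KO cells the change was the same size, 0.27 ± 0.09, and missed the threshold (adjusted p = 0.103). The dimmer probe set 1456956_at rose by 1.12 ± 0.31 in WT cells (adjusted p = 0.0154) and stood at 0.74 ± 0.31 in KO cells (adjusted p = 0.223).

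Ikzf4, which encodes Eos, a corepressor partner of FOXP3, stood at 346 and 464 with vehicle and 778 and 664 with db-cAMP in WT cells, and at 516 and 502 against 646 and 627 in KO cells. No db-cAMP array overlapped a vehicle array of its genotype. The change was 1.78-fold in WT cells (log2 0.84 ± 0.16, adjusted p = 0.000846) and 1.25-fold in KO cells (0.32 ± 0.16, adjusted p = 0.275). A second probe set gave 0.75 ± 0.18 (adjusted p = 0.00633) and 0.51 ± 0.18 (adjusted p = 0.135). As the mean of 3 probe sets, 1 of them near background, the WT change was not called (0.62, adjusted p = 0.0806).

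**Figure D3:**
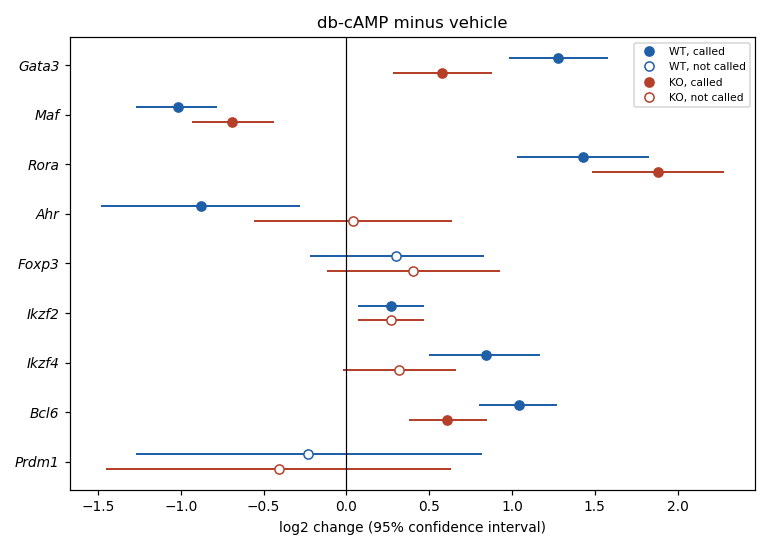
Log2 change with db-cAMP of each regulator in WT cells (blue) and KO cells (red), with 95% confidence intervals of the fit; filled points passed an adjusted p of 0.05. In WT cells 7 points are filled and in KO cells 4, and the wide intervals of Prdm1 span from -1.45 to 0.82.

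At the main probe sets, only Gata3 passed the test of the difference between the genotypes in the response to db-cAMP. Its KO effect was smaller than its WT effect by 0.7 on the log2 scale (-0.7 ± 0.2, adjusted p = 0.0349), in a comparison in which 11.8% of all genes were called, 6.7% higher and 5.09% lower. The call was lost in 10 of 19 alternatives, among them the fits that left out vehicle replicate 1 (adjusted p = 0.0886), vehicle replicate 2 (0.0527) or db-cAMP replicate 1 (0.112) of the WT arrays, KO vehicle replicate 1 (0.121), and KO db-cAMP replicate 1 (0.134) or 2 (0.0867). For Ikzf4 and Bcl6 the differences of -0.52 ± 0.22 and -0.42 ± 0.15 did not pass (adjusted p = 0.174 and 0.102). Maf stood at 0.34 ± 0.16 (adjusted p = 0.228) and Ikzf2 at 0 ± 0.13 (95% interval -0.28 to 0.28). For Foxp3 and Prdm1 the intervals were -0.65 to 0.84 and -1.66 to 1.29.

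Without db-cAMP, Gata3 and Ikzf2 were higher in KO than in WT cells. Gata3 was 1.71-fold higher (log2 0.78 ± 0.14, adjusted p = 0.00281) and Ikzf2 1.35-fold (0.43 ± 0.09, adjusted p = 0.00862), where 10.8% of all genes were called, 5.06% higher and 5.78% lower. Without the intensity trend neither was called (adjusted p = 0.0636 and 0.084). The Ikzf2 call was also lost on averaging its probe sets (0.4) and without WT vehicle replicate 1 (adjusted p = 0.0597) or KO vehicle replicate 2 (0.0525), and its second probe set stood at -0.14 ± 0.31 (adjusted p = 0.854). The groups of 8 of the 9 regulators did not overlap, as did those of 50.9% of all genes. Rora stood at 0.45 ± 0.18 (adjusted p = 0.157), and 2 of its other probe sets were called higher in KO cells, at 1.59 ± 0.25 and 2.37 ± 0.58 (adjusted p = 0.00118 and 0.0193). A second Ikzf4 probe set was also called, at 0.72 ± 0.18 (adjusted p = 0.0195), against 0.34 ± 0.16 at the main one (adjusted p = 0.209).

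With db-cAMP, Rora and Ikzf2 were higher in KO than in WT cells, and Gata3 did not pass the test. Rora was 1.87-fold higher at its main probe set (log2 0.9 ± 0.18, adjusted p = 0.00217), but the other 6 gave -0.97 to 0.79 with 0 called, and the mean of all its probe sets was 0.07 (adjusted p = 0.903). Ikzf2 was again 1.35-fold higher (0.43 ± 0.09, adjusted p = 0.00283), against -0.52 ± 0.31 at its second probe set (adjusted p = 0.257) and 0.29 on averaging its probe sets (adjusted p = 0.563). Ahr stood at 0.64 ± 0.28 (adjusted p = 0.11) and was called with an equal median per array (0.8, adjusted p = 0.0411). Gata3 stood at 0.08 ± 0.14 (95% interval -0.22 to 0.38). Of all genes 29.2% were called here, 15.9% higher and 13.3% lower, so 2 of 9 is no larger a share than the background. The groups of 7 of the 9 did not overlap, against 64.1% of all genes.

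**Figure D4:**
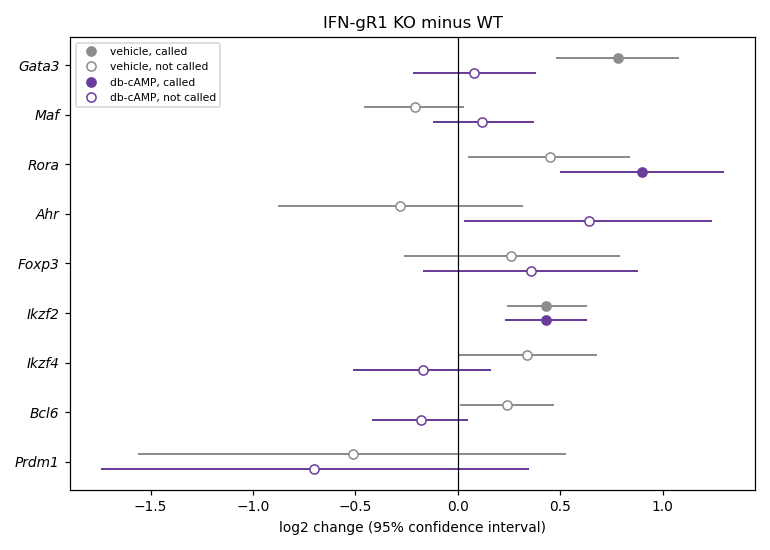
Log2 difference of KO minus WT cells for each regulator under vehicle (grey) and under db-cAMP (purple), with 95% confidence intervals; filled points passed an adjusted p of 0.05. Ikzf2 is filled in both, at 0.43 each, Gata3 under vehicle only and Rora under db-cAMP only.

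Technical signals also moved with the groups. Poly-A controls, RNAs that are spiked in before labelling, gave means of 1280 to 1910 on the WT arrays and 3700 to 5190 on the KO arrays, and in each genotype they were higher with db-cAMP. The 18S rRNA probe sets stood at 24600 to 28600 with vehicle and 31400 to 38700 with db-cAMP. Gapdh ratios of 3-prime to 5-prime signal ran from 0.734 to 0.769 in WT and from 0.779 to 0.85 in KO arrays, and Actb ratios the other way, from 1.46 to 1.72 in WT and from 1.34 to 1.44 in KO arrays. The 75th percentile of signal was 318 to 327 on WT and 338 to 358 on KO arrays. The part of these in the results was not tested, and whether both genotypes were processed together is not stated in the labels. Median signals were 56.2 to 70.5, and replicates correlated at 0.961 to 0.977 across genes.

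T cell identity markers summed to 71560 to 81220 (8 of 9 on the array), mostly through genes of all T cells such as Cd3d, Cd5 and Cd28. The Cd4 probe set itself gave 253 to 539 and was called in none of the 5 comparisons (adjusted p from 0.19 to 0.895). Under vehicle Cd3d (-0.39), Cd3g (-0.31) and Cd2 (-0.38) were called lower and Cd28 (0.3) higher in KO than in WT cells. With db-cAMP in WT cells Cd3e (-0.42), Cd3g (-0.32) and Cd5 (-0.25) were called lower and Cd2 (0.38) and Cd28 (0.35) higher. In KO cells 2 identity markers rose and 0 fell with db-cAMP, and under db-cAMP 3 were higher and 2 lower in KO than in WT cells. Of 9 tested markers of macrophages, neutrophils, dendritic cells, erythroid cells and platelets, limma called 0 in all 5 comparisons. At an unadjusted p under 0.05 there was 1 for db-cAMP in WT cells and 1 for the difference between genotypes. Some of these 9 were dim, such as Siglech (4.7 to 114) and Itgax (5.2 to 80.1), which limits what 0 calls can show. Of all genes 35% (db-cAMP in WT), 8.38% (db-cAMP in KO), 10.8% (genotype under vehicle), 29.2% (genotype under db-cAMP) and 11.8% (the difference) were called. Summed B cell markers (7 of 8) ran from 631 to 896 in WT and from 442 to 519 in KO arrays, and Cd79b and Ms4a1 were lower in KO cells under db-cAMP. Cd8b1 was lower in KO cells under both treatments. Summed markers of NK and innate lymphoid cells (5 of 6), which can also express Gata3, Rora and Ahr, went with db-cAMP from 770 and 934 to 1756 and 1988 in WT cells and from 810 and 966 to 1429 and 1539 in KO cells, through Klrd1 and, in WT cells, Eomes. Ncr1 and Klra8, also on this marker list, were too dim to be tested, at most 35.7. The part of these cells in the results was not tested.

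Other genes of each lineage were read from lists, chosen with earlier results of these data known. Among all genes tested, 16.4% rose and 18.6% fell with db-cAMP in WT cells, and 4.7% rose and 3.68% fell in KO cells. Of 12 Th2 genes tested, 4 rose and 2 fell with db-cAMP in WT cells (median 0.09; all genes 0.01), and 2 rose and 0 fell in KO cells (4 and 0 at an unadjusted p under 0.05). Dusp10, a MAP kinase phosphatase, rose by 3.01 ± 0.11 in WT and 1.4 ± 0.11 in KO cells (adjusted p = 3.26e-10 and 2.48e-06), and Nfil3, a basic leucine zipper factor, by 1.48 ± 0.19 and 1.21 ± 0.19, the latter not called without the intensity trend (adjusted p = 0.065). Gata3 rose while the Th2 cytokine Il4 fell by 1.17 on the log2 scale (-1.17 ± 0.25, adjusted p = 0.00203) and Gfi1, a repressor that supports Th2 growth, by 1.6 (-1.6 ± 0.1, adjusted p = 4.42e-08) in WT cells. In KO cells these stood at -0.23 ± 0.25 and -0.19 ± 0.1 and did not pass. Stat6, which carries the IL-4 signal, rose by 0.27 ± 0.08 in WT cells (adjusted p = 0.0188), but not on leaving out vehicle replicate 1 (0.128) or db-cAMP replicate 2 (0.0843) of that genotype, nor with arrays set to an equal median (0.1, adjusted p = 0.581).

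Of 11 Th17 genes, 3 rose and 5 fell in WT cells (median -0.18), against 16.4% and 18.6% of all genes. In KO cells 2 rose and 3 fell, against 4.7% and 3.68% of all genes. Among the alternatives the KO count of falls went as low as 0 and that of rises as low as 1. Stat3, which carries IL-6 and IL-23 signals, rose from 1164 ± 19.5 to 6124 ± 238 in WT cells (SD, n = 2; log2 2.39 ± 0.1) and from 1773 ± 310 to 4681 ± 139 in KO cells (1.41 ± 0.1), and the chemokine receptor Ccr6 rose by 1.14 ± 0.22 in WT cells. Batf and Irf4, which bind DNA together and act with MAF at Th17 genes, fell in WT cells as Maf did, by 0.87 and 0.7 on the log2 scale (-0.87 ± 0.12 and -0.7 ± 0.07, adjusted p = 5.33e-05 and 3.84e-06). In KO cells they stood at -0.55 ± 0.12 and -0.32 ± 0.07 (adjusted p = 0.00919 and 0.0116), and both calls were lost without KO vehicle replicate 2 (0.0802 and 0.127) or db-cAMP replicate 1 (0.0924 and 0.126), and that of Irf4 without KO db-cAMP replicate 2 (0.0585). The IL-6 receptor chains Il6ra and Il6st stood at -1.14 ± 0.15 and -0.57 ± 0.11 in WT cells (adjusted p = 4.63e-05 and 0.000909), and Il6st was not called as the mean of its probe sets (-0.31, adjusted p = 0.312). Ccl20, a chemokine, fell by 2.01 in WT cells (-2.01 ± 0.48, adjusted p = 0.00475), and was not called without the intensity trend (0.0569). Of these, Il6ra fell in KO cells too (-0.7 ± 0.15, adjusted p = 0.0107), but not without the intensity trend (0.113). Il6st (-0.06 ± 0.11), Ccr6 (0.18 ± 0.22) and Ccl20 (-1.11 ± 0.48) did not pass in KO cells (adjusted p = 0.819, 0.749 and 0.2).

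Of 5 tested partners and targets of AHR, limma called 0 in WT and 0 in KO cells, with 0 at an unadjusted p under 0.05 in either. Arnt, the dimer partner of AHR, gave 0.17 ± 0.19 (WT) and 0.28 ± 0.19 (KO), and Il10 at -0.1 ± 0.2 and -0.13 ± 0.2. The target genes Ahrr and Cyp1a1 were too dim to be tested. Cyp1b1 and Nqo1, named after their values were seen, were tested but dim, with group means of 19.9 to 60.6 and 45.3 to 93.4. Their WT changes had wide errors (-0.82 ± 0.93 and 0.47 ± 0.55). Among all genes 35% were called in WT and 8.38% in KO cells. A list of 5 genes, some of them dim, is too short to show what went with the fall of Ahr in WT cells.

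Bcl6 rose while 6 of 14 Tfh genes fell and 2 rose in WT cells (median -0.52), against 18.6% and 16.4% of all genes. In KO cells 6 fell and 1 rose (median -0.36), against 3.68% and 4.7% of all genes. Among the alternatives the KO count of falls went as low as 1 and that of rises as low as 0. Btla, an inhibitory receptor, fell from 6684 ± 255 to 1821 ± 47 in WT cells (log2 -1.87 ± 0.08) and from 4806 ± 276 to 3219 ± 53.5 in KO cells (-0.58 ± 0.08), and this effect differed between the genotypes by 1.3 ± 0.11 (adjusted p = 1.3e-05). Cd200, an immunoglobulin-family ligand, stood at -1.12 ± 0.09 and -0.71 ± 0.09 and the coactivator Pou2af1 at -1.05 ± 0.09 and -0.7 ± 0.09. In KO cells Btla and Cd200 were not called without the intensity trend (adjusted p = 0.0522 and 0.0534). Slamf6, an adhesion receptor, stood at -1 ± 0.21 and -0.89 ± 0.21, and its KO call was lost on leaving out vehicle replicate 1 (adjusted p = 0.169) or db-cAMP replicate 2 (0.184) of that genotype. The 2 that rose in WT cells were Icos and Sh2d1a, named after their values were seen. Icos rose by 0.82 ± 0.08 in WT and 0.49 ± 0.08 in KO cells (adjusted p = 4.08e-06 and 0.00209). Sh2d1a rose by 0.53 ± 0.15 in WT cells (adjusted p = 0.0142) and stood at 0.18 ± 0.15 in KO cells (adjusted p = 0.599). Cxcr5, named in the same way, stood at 0.52 ± 0.26 and 0.62 ± 0.26 and did not pass (adjusted p = 0.147 and 0.188). Tcf7 was not analysed here.

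Of 10 genes that are partners or opposed targets of Bcl6 and Blimp-1, 6 rose and 2 fell in WT cells (median 0.98; all genes 0.01, of which 16.4% rose and 18.6% fell), and again 6 rose and 2 fell in KO cells (median 0.35; all genes 0, of which 4.7% rose and 3.68% fell). Klf2, which restrains Tfh differentiation and keeps T cells recirculating, rose by 1.84 ± 0.1 and 1.17 ± 0.1, and its target S1pr1, the receptor for lymph node exit, by 1.78 ± 0.15 and 0.81 ± 0.15. The S1pr1 call in KO cells was lost without KO db-cAMP replicate 2 (adjusted p = 0.0587). Id3, an inhibitor of E proteins, fell by 2.23 in WT and 1.2 in KO cells on the log2 scale (-2.23 ± 0.12 and -1.2 ± 0.12). The KO count of rises went as low as 2 among the alternatives.

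Treg genes moved both ways. Of 19 tested, 5 rose and 4 fell in WT cells (median 0.07), against 16.4% and 18.6% of all genes. In KO cells 4 rose and 0 fell (5 and 2 at an unadjusted p under 0.05), against 4.7% and 3.68% of all genes. Satb1, a chromatin organiser that prepares Treg enhancers, rose from 6506 ± 24.6 to 25120 ± 2930 in WT cells (log2 1.94 ± 0.08) and by 1.38 ± 0.08 in KO cells. Tnfrsf18, which encodes the costimulatory receptor GITR, rose by 1.33 ± 0.07 and 0.59 ± 0.07, and Ctla4, the inhibitory receptor, by 1 ± 0.1 and 0.77 ± 0.1. The last was not called in KO cells without the intensity trend (adjusted p = 0.0589). The receptor gene Gpr83 fell by 1.7 (-1.7 ± 0.24, adjusted p = 7.68e-05) and Il2ra, the high-affinity IL-2 receptor chain and a FOXP3 target, by 0.74 (-0.74 ± 0.12, adjusted p = 0.000192) in WT cells. In KO cells these stood at -0.63 ± 0.24 and -0.16 ± 0.12 and did not pass.

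**Figure D5:**
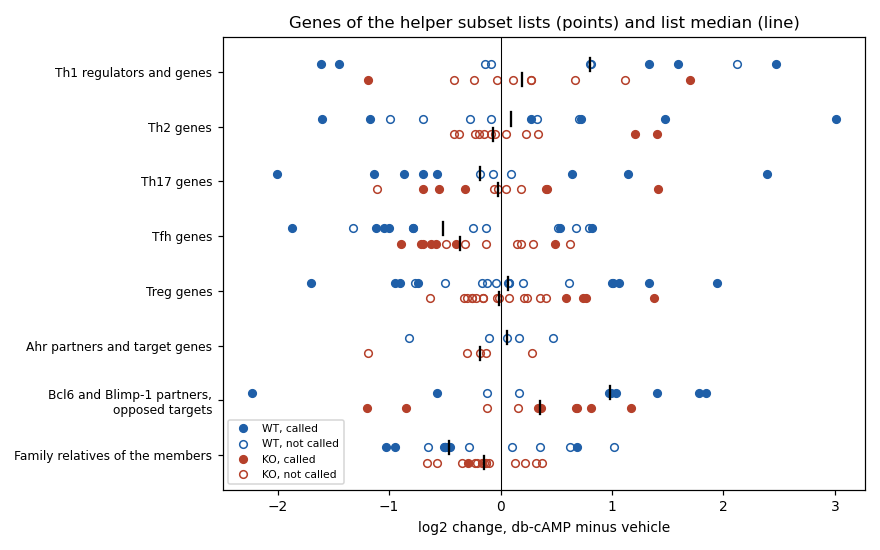
Log2 change with db-cAMP of each tested gene in 8 lists, in WT cells (blue) and KO cells (red), with the list median as a black line; filled points passed an adjusted p of 0.05. The WT medians run from -0.52 for the Tfh genes to 0.98 for the partners and opposed targets of Bcl6 and Blimp-1, and the points of most lists lie on both sides of 0.

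Of the Ikaros family, Ikzf4 and Ikzf2 rose in WT cells at their main probe sets, the latter with the call lost in 13 of 20 alternatives, and Ikzf5, named after its values were seen, stood at 0.1 ± 0.15 (adjusted p = 0.644). Ikzf1 (Ikaros) stood at 9616 ± 189 with vehicle and 6807 ± 111 with db-cAMP (SD, n = 2; log2 -0.5 ± 0.07, adjusted p = 4.55e-05) and Ikzf3 (Aiolos) at 2485 ± 323 and 1280 ± 8.95 (-0.95 ± 0.1, adjusted p = 4.86e-06). As means of their probe sets neither these nor the risers were called, with 0.62 for Ikzf4, 0.52 for Ikzf2, -0.23 for Ikzf1 and -0.1 for Ikzf3 (adjusted p = 0.0806, 0.246, 0.222 and 0.837). In KO cells Ikzf3 stood at -0.1 ± 0.1 (adjusted p = 0.668), and its effect differed between the genotypes by 0.85 ± 0.14 (adjusted p = 0.00139). Ikzf1 stood at -0.29 ± 0.07 in KO cells (adjusted p = 0.0151) and lost the call without KO vehicle replicate 2 (0.115), KO db-cAMP replicate 1 (0.108) or 2 (0.111). Over 15 relatives of the 9 regulators, 1 rose and 4 fell in WT cells (median -0.46), and in KO cells limma called 0 higher and 1 lower (0 and 2 at an unadjusted p under 0.05). Among all genes 35% were called in WT and 8.38% in KO cells, so these counts are no larger a share than the background. Foxp1, a relative of Foxp3, fell by 1.03 in WT cells (-1.03 ± 0.09) and stood at -0.21 ± 0.09 in KO cells.

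The genes whose profiles lay closest to each regulator were found by the root mean square difference of log2 values, centred per gene, over the 8 arrays. For Gata3 they were Map3k3 and Iqgap1 (0.134 and 0.136, against a range of 1.47 for Gata3 itself). For Maf they were Tmem68 and Ltb (0.088 and 0.09, range 1.18), for Bcl6 Cdon and Phlda1 (0.08 and 0.083, range 1.11), and for Ikzf4 Smad7 and Unc50 (0.065 and 0.078, range 1.16). Ahr lay nearest Slc39a9 and Trim44 (0.114 and 0.116, range 1.11), Ikzf2 nearest Gatad2a and Ammecr1l (0.055 and 0.065, range 0.78) and Foxp3 nearest N4bp2 and Fbxo11 (0.064 and 0.068, range 0.77). Rora lay nearest Prkca and Sema4c (0.361 and 0.363, range 2.59) and Prdm1 nearest Tmem126b and Slc17a9 (0.188 and 0.189, range 1.78). No other regulator of the 9 was among these nearest genes.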

How the data were processed

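RNA of 8 samples was measured on Affymetrix arrays, 2 in each of 4 groups taken from the titles. Each probe set has a linear signal intensity, made with MAS5 per the submitters' processing notes (version: not given in the sources used here), and the deposited intensity columns were used as they are. Scaling of this kind hides a change in total mRNA per cell. Of 45101 probe sets, 34945 had 1 gene symbol, 932 several and 9160 none, and 64 were controls. Values were transformed as log2(value + 5.48), the offset being the 10th percentile, which understates the folds of dim genes. A gene was kept where it exceeded the array median on 2 arrays or more. limma 3.58.1 in R 4.3.3 (lmFit, eBayes with an intensity trend) was fitted with 1 term per group over all 8 arrays, and p-values were adjusted over 12091 genes, with a threshold of 0.05. Residual degrees of freedom were 4, and the prior ones 9 (median). Errors of changes are standard errors and those of levels the SD of 2 arrays. The fit was also run on simulated data with normal noise of its own fitted spread. Such a run cannot check whether real array noise has this form. The number of arrays limits the precision.

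The members and gene lists were chosen with earlier results of these data known. Named genes were drawn from all 9 members, their 2 nearest genes each, the largest called changes of each list (4 for db-cAMP in WT cells, 2 otherwise), and a set named whatever its values. Some genes picked by this rule, such as Il7r and Tgfb1, are not described, so the largest changes of a list are not all shown. A few other list genes were named after their values were seen, as the text says where they appear. Promoters came from RefSeq, GRCm38.p6. Figures used Python 3.11.15 and matplotlib 3.10.9. Some list genes were not analysed here.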

Additional observations from a re-analysis of the deposited data

Results flagged for a closer look

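The response of Gata3 to db-cAMP differed between the genotypes by a tested difference of -0.7 on the log2 scale, KO minus WT. This call was lost in 10 of 19 alternatives, in a comparison in which 11.8% of all genes were called. The response of the Rora probe set 1436326_at differed by -1.66 in the fit of every probe set. It was the only 1 of 7 kept Rora probe sets called, and the main one stood at 0.45, in the other direction. Dixon's test of single samples needs groups of 4 or more and was not run on groups of 2.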

How the results depend on the processing

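Each comparison was recomputed under 20 alternatives, 19 for the difference between genotypes. Of 16 called effects of the regulators, 0 changed direction, 3 kept the call in every alternative (Gata3, Rora and Bcl6 with db-cAMP in WT cells) and 13 lost it in at least 1. The mean over all probe sets of a gene, dim ones included, left 3, 1, 1, 0 and 0 regulators called for db-cAMP in WT, db-cAMP in KO, genotype under vehicle, genotype under db-cAMP and the difference, against 7, 4, 2, 2 and 1. Without the intensity trend the counts were 1 for db-cAMP in KO and 0 for genotype under vehicle and the difference. The difference was also called for 0 regulators with an equal median per array and with every probe set as a feature. Leaving out 1 array gave 5 to 7, 3 to 4, 1 to 2, 2 to 2 and 0 to 1. The replicate number as a block gave 6 regulators for db-cAMP in WT, losing Ikzf2 (adjusted p = 0.0508), and the same counts of 4, 2, 2 and 1 otherwise. Deviations of same-numbered arrays correlated at -0.02 to 0.02, so the numbers are no pairing seen in the data.

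Over all genes, 4233, 1013, 1311, 3529 and 1425 were called. The mean of probe sets called 462, 756, 2264 and 639 for the last 4, and no trend 188, 251 and 261 for db-cAMP in KO, genotype under vehicle and the difference. Every probe set as a feature called 6385, 2401 and 5790 for db-cAMP in WT and both genotype comparisons. An equal median called 608 and 846 for db-cAMP in KO and genotype under vehicle and 947 for the difference. Leaving out 1 array gave as few as 446, 617 and 891 for db-cAMP in KO, genotype under vehicle and the difference. An equal median shifted the median of all genes from 0.01, -0.01 and 0 to -0.16, 0.07 and 0.17 for db-cAMP in WT and genotype under vehicle and db-cAMP. The share of calls that were higher moved from 46.9%, 46.7%, 54.6% and 56.8% to 29.2%, 64.4%, 76.8% and 73.2% there (db-cAMP in WT, genotype under vehicle and db-cAMP, and the difference). With an equal 75th percentile it was 25.4%, 37.9% and, for db-cAMP in KO, 43.4% against 56.1%. Other named genes changed sign as the mean of their probe sets: Slc39a9 (0.01, db-cAMP in WT), Cdon (-0.09, db-cAMP in KO), Stat3 (-0.15, genotype under vehicle), and Prdm2 (0.06), Map3k3 (-0.03) and N4bp2 (-0.27, all genotype under db-cAMP). The causes were not tested. Dim genes such as Prdm1 are limited by their signal over background.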

Other observations

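Of 10 Th1 genes tested, 1 was called higher and 3 lower in KO than in WT cells under vehicle (median 0.02), against 5.06% and 5.78% of all genes. Under db-cAMP 1 was higher and 5 lower (median -0.56), against 15.9% and 13.3% of all genes. The higher Th1 gene was Ifng, the cytokine itself (0.57 ± 0.13, adjusted p = 0.0113, and 0.98 ± 0.13, adjusted p = 5.99e-05). Under vehicle Tbx21, which encodes T-bet and is induced by IFN-γ, had signals of 1357 ± 80.4 (WT) and 141 ± 12.2 (KO; SD, n = 2; log2 KO minus WT -3.22 ± 0.16, adjusted p = 2.61e-08), and did not pass with db-cAMP in either genotype (-0.09 ± 0.16 and -0.24 ± 0.16, adjusted p = 0.696 and 0.43). Il12rb1, an IL-12 receptor chain, was lower in KO cells under vehicle (log2 -1.52 ± 0.23, adjusted p = 0.00108). With db-cAMP 3 of the 10 rose and 2 fell in WT cells, against 16.4% and 18.6% of all genes. For KO cells these were 1 and 1, against 4.7% and 3.68%. Ifng fell in both genotypes (-1.61 ± 0.13 and -1.19 ± 0.13, adjusted p = 3.6e-07 and 5.55e-05). Il12rb1 fell in WT cells (-1.45 ± 0.23, adjusted p = 0.000258) and stood at -0.03 ± 0.23 in KO cells. Stat4 rose by 2.47 ± 0.08 and 1.7 ± 0.08. The T-box factor Eomes, also on the NK cell marker list, rose by 1.59 ± 0.18 with db-cAMP in WT cells and stood at 0.27 ± 0.18 in KO cells, a difference of -1.32 ± 0.25 (adjusted p = 0.00366).

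Under vehicle 5 of 11 Th17 genes were called higher and 1 lower in KO than in WT cells. The counts were 3 and 2 of 14 Tfh genes, 1 and 1 of 19 Treg genes and 2 and 0 of 15 relatives. Among all genes 5.06% were higher and 5.78% lower. Under db-cAMP they were, in this order, 5 and 1, 5 and 0, 2 and 3, and 5 and 1, against 15.9% and 13.3%. Il17a, named after its values were seen, was higher by 0.92 ± 0.19 and 0.88 ± 0.19 (adjusted p = 0.00804 and 0.00369). Some genes of the other lists, relatives of the regulators included, were higher in KO than in WT cells under both treatments. Others were lower, such as Irf8 (-2.21 ± 0.09 under vehicle and -3.23 ± 0.09 under db-cAMP). Tnfsf8, which encodes CD30 ligand, had vehicle signals of 422 ± 9 (WT) and 2399 ± 3.69 (KO; log2 2.49 ± 0.13, adjusted p = 7.18e-08) and was higher by 2.67 ± 0.13 under db-cAMP. Runx1, a partner of FOXP3, was higher by 1.17 ± 0.15 and 1.77 ± 0.15 (adjusted p = 0.000194 and 1.34e-06), Foxp1 by 0.99 ± 0.09 and 1.81 ± 0.09, and the small MAF protein gene Mafg by 0.79 ± 0.11 and 0.94 ± 0.11. The spike-in signals that separate the genotypes, given in the report, move with these differences too, and their part was not tested.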
